A study of Drosophila melanogaster with 6 samples.

Results

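The genes described here are 10 genes of Drosophila melanogaster that control entry into S phase: the cyclins CycD and CycE, their kinases Cdk4 and Cdk2, the CycE-Cdk2 inhibitor dap, the transcription factors E2f1 and E2f2, their partner Dp, and the retinoblastoma proteins Rbf and Rbf2. A gene was counted through the probe sets (groups of short array probes that together give 1 value per transcript) that the platform annotation pairs with its symbol. Of the 10 genes, 8 had 1 probe set of their own among the 18769 fly probe sets of the table. E2f1 was paired with 1 probe set that also carries Torsin, so its values cannot be assigned to either gene. For dap no probe set was named in the annotation used here, and dap was not analysed. With 1 probe set per gene, splice forms were not told apart.

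In cycling cells, D-type and E-type cyclins activate their kinases, which phosphorylate retinoblastoma proteins and release E2F-Dp dimers to transcribe genes needed for DNA synthesis. Flies carry an activating E2F, E2f1, and a repressing one, E2f2, which binds DNA with Dp and recruits Rbf or Rbf2. CycE-Cdk2 triggers S phase itself, CycD-Cdk4 also drives growth in fly tissues, and dap, a CIP/KIP family protein, holds CycE-Cdk2 back. Much of this control acts on protein activity and stability, which an RNA measurement does not show.

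The study used S2 cells, a line derived from fly embryos with features of hemocytes (blood cells), 5 days after addition of double-stranded RNA (dsRNA). In 3 samples the dsRNA targeted spotted-dick (CG3941, today called pita), a gene for a zinc-finger protein. In the other 3 it targeted GFP, which flies lack, so these samples had the same kind of treatment without a fly target. Each RNA was hybridised to 1 Affymetrix Drosophila_2 array. The question behind the comparison is which mRNA levels depend on spotted-dick. The labels name 1 dsRNA per target and no rescue, so loss of the gene and other effects of that dsRNA cannot be told apart. They do not say whether replicates came from separate cultures, so p-values measure only the spread between these samples.

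The deposited values are intensities on a linear scale, and the arrays were not equally bright. Their trimmed mean signal was 126 to 139 in the spotted-dick RNAi arrays and 126 to 190 in the GFP RNAi arrays. The values were therefore quantile-normalised before the test, and changes are given on the log2(signal + 16) scale as spotted-dick RNAi minus GFP RNAi. In the limma fit across 11261 probe sets, pita had a change of -2.54 ± 0.16 (SE, n = 3 and 3, adjusted p = 6.96e-08). Orc4, an origin recognition complex gene, had one of -2.53 ± 0.20 (SE, limma adjusted p = 1.58e-06). Deposited signals of Orc4 were 2.7, 14.2 and 4.0 in spotted-dick RNAi replicates 1 to 3, against 141.1, 146.0 and 100.9 in GFP RNAi replicates 1 to 3. The size of its change therefore depends on the added 16. It was -4.11 with 1 added and -1.34 with 64 added, against -2.98 and -1.80 for pita. In all, 229 probe sets passed at an adjusted p under 0.05, 68 of them higher and 161 lower. The counts were 11 higher and 129 lower without normalization, and 16 higher and 151 lower with median centring. Scaling to the hybridisation controls gave 69 higher and 132 lower. The ratio of the 3′ to the 5′ control probe set, a measure of RNA integrity, was 2.74 to 2.97 in the spotted-dick RNAi arrays and 2.60 to 2.82 in the GFP RNAi arrays for actin, and 8.09 to 9.53 in the spotted-dick RNAi arrays and 8.004 to 9.32 in the GFP RNAi arrays for eIF4A. For GAPDH it was 3.03, 3.70 and 4.04 in spotted-dick RNAi replicates 1 to 3, the last 2 above every GFP RNAi array (2.97 to 3.39). The part of these ratios in the changes was not tested. Of 8 hemocyte markers, Hml, srp, crq, He and eater lay above 17.4, the 95th percentile of the control probe sets named AFFX-Dm, on all 6 arrays. Sr-CI and NimC1 lay above it on none. Pxn, above it on 4 arrays, had a change of 1.39 (limma adjusted p = 4.23e-04). The change of crq, -0.31, fell just short of passing (limma adjusted p = 0.0543). Those of eater (-0.14), Hml (-0.06), srp (0.0086), He (0.03) and NimC1 (0.30) did not pass either (limma adjusted p = 0.733 to 0.974). Of markers of other cell types, the neuronal genes elav and brp and the epithelial gene crb lay above 17.4 on all 6 arrays. The neuronal gene nSyb lay above 17.4 on none and the epithelial gene shg on 2. Of muscle, germline and fat body markers with a probe set, bam lay above 17.4 on 4 arrays. Act88F and Lsp2 did so on 1 array each, and up and Fbp1 on none. The summed deposited signal of the hemocyte markers, before normalization, was 2111 to 2344 in the spotted-dick RNAi arrays and 2234 to 3391 in the GFP RNAi arrays.

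None of the 8 G1/S probe sets passed the test, where 2.03% of all tested probe sets did. All 8 lay above 17.4 on every array and passed the filter on dim probe sets. Their changes ran from -0.14 for Rbf2 to 0.23 for Dp, with a median of 0.05 against 0.01 over all tested probe sets. The lowest adjusted p among them was 0.461, and 0 of 8 had an unadjusted p under 0.05, against 12.3% of all tested probe sets. The 95% interval of the change, which is not adjusted for the number of probe sets, lay within 2-fold in either direction for all 8, as it did for 95.4% of all tested probe sets. Spotted-dick RNAi and GFP RNAi arrays overlapped for each of the 8, both as deposited and after normalization, while 14.0% and 17.8% of tested probe sets had groups that did not overlap.

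**Figure D1:**
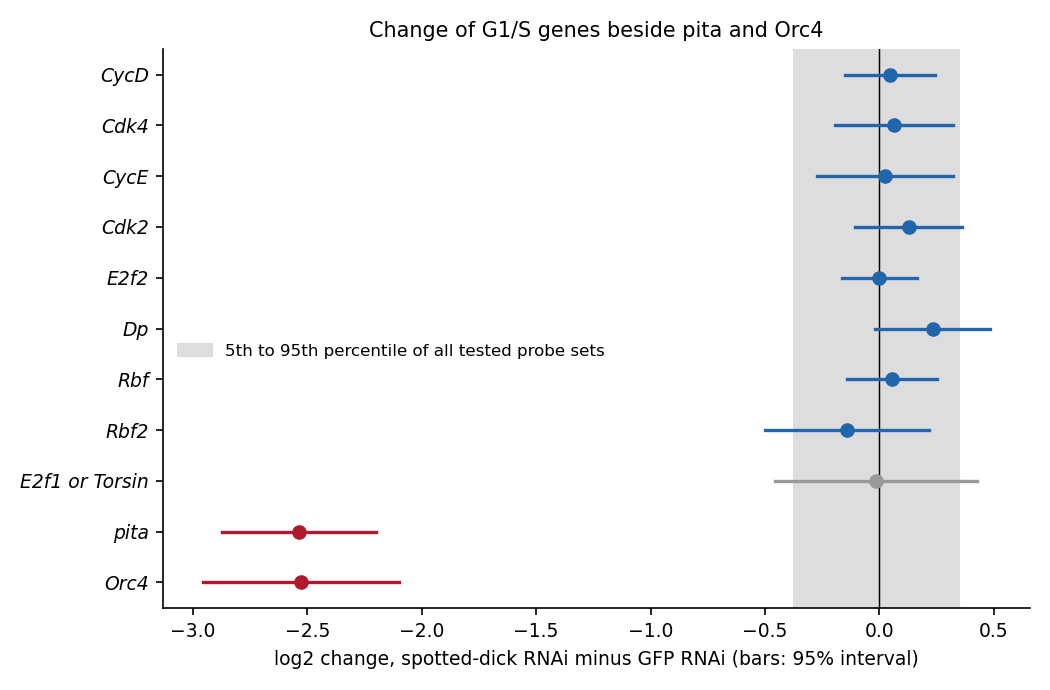
Log2 change (x axis, spotted-dick RNAi minus GFP RNAi) of the 8 G1/S probe sets, the probe set shared by E2f1 and Torsin, and pita and Orc4, with 95% intervals from limma. The grey band runs from -0.37 to 0.35, the 5th to the 95th percentile of all tested probe sets. The 8 changes lie inside it, and pita and Orc4 lie near -2.5, a size that for Orc4 depends strongly on the added 16.

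The cyclin D pair differed little between the groups. CycD (CG9096), the regulatory subunit of Cdk4, had deposited signals of 190.0, 197.3 and 181.8 in spotted-dick RNAi replicates 1 to 3, against 286.5, 241.0 and 160.5 in GFP RNAi replicates 1 to 3. The first 2 GFP RNAi arrays were the highest and the third the lowest of the 6, so the groups overlapped. After normalization the mean signal was 209.6 ± 6.1 in spotted-dick RNAi arrays and 202.7 ± 15.3 in GFP RNAi arrays (SD, n = 3 each). The change was 0.05 ± 0.09 (SE, 95% interval -0.15 to 0.25, limma adjusted p = 0.891).

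Cdk4 (CG5072), the kinase of this pair, had deposited signals of 225.0, 217.0 and 248.3 in spotted-dick RNAi replicates 1 to 3, against 263.4, 317.8 and 223.7 in GFP RNAi replicates 1 to 3. Unlike CycD, its highest signal came from GFP RNAi replicate 2 rather than replicate 1, which was the brightest array. Its normalised mean was 254.1 ± 28.1 in spotted-dick RNAi arrays and 243.7 ± 43.3 in GFP RNAi arrays (SD, n = 3 each), with a change of 0.07 ± 0.12 (SE, 95% interval -0.19 to 0.32, limma adjusted p = 0.882).

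CycE, whose product drives the start of DNA replication, varied more between GFP RNAi arrays than between groups. CycE (CG3938) had deposited signals of 160.1, 208.5 and 180.8 in spotted-dick RNAi replicates 1 to 3, against 335.4, 229.7 and 132.3 in GFP RNAi replicates 1 to 3. The GFP RNAi arrays thus held the highest and the lowest of the 6 values. Normalization narrowed this range without removing it, to 249.4, 202.4 and 151.4 in the GFP RNAi arrays, against 180.9, 217.3 and 206.3 in the spotted-dick RNAi arrays. The SD of the normalised log2 values was 0.13 in spotted-dick RNAi arrays and 0.33 in GFP RNAi arrays. Normalised means were 201.5 and 201.1 in these groups, and the change was 0.02 ± 0.14 (SE, 95% interval -0.27 to 0.32, limma adjusted p = 0.962).

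Cdk2 (CG10498), the partner kinase of CycE, was measured at 124.9, 110.7 and 111.2 in spotted-dick RNAi replicates 1 to 3, against 162.7, 125.9 and 102.1 in GFP RNAi replicates 1 to 3. After normalization its spotted-dick RNAi signals of 141.2, 117.3 and 126.7 lay mostly above the GFP RNAi signals of 121.4, 109.1 and 116.9, with an overlap between spotted-dick RNAi replicate 2 and GFP RNAi replicate 1. The change was 0.13 ± 0.11 (SE, 95% interval -0.11 to 0.36, limma adjusted p = 0.704).

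**Figure D2:**
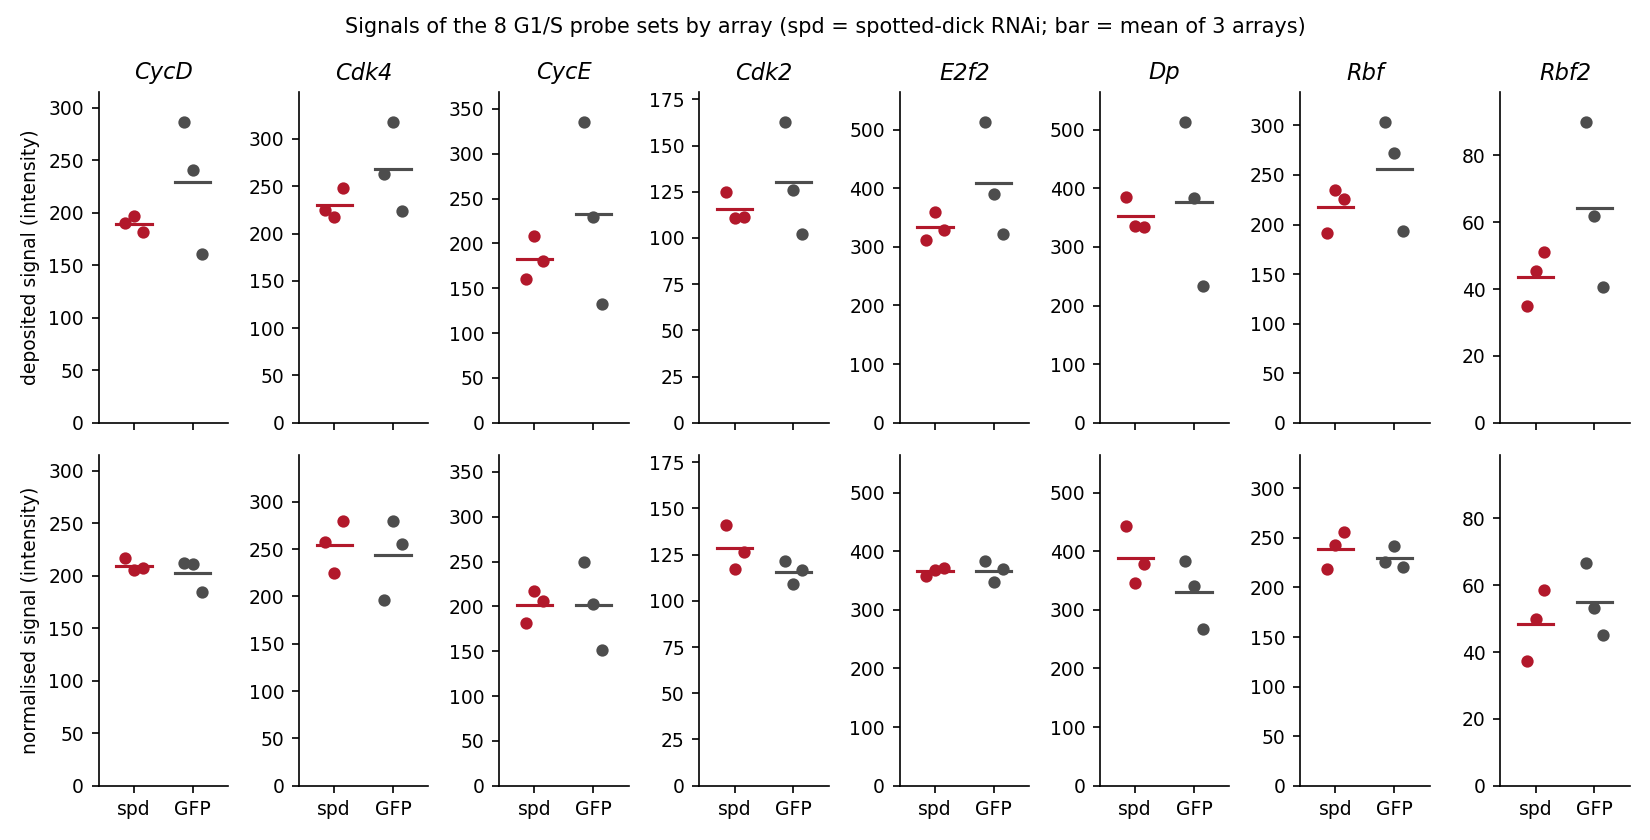
Signal intensity per array (y axis, linear, from 0) of the 8 G1/S probe sets, as deposited (top) and after quantile normalization (bottom), with spotted-dick RNAi (spd, red) left of GFP RNAi (grey). Points are replicates 1 to 3 from left to right and bars are means; the GFP RNAi signals of CycD span 160.5 to 286.5 as deposited and 185.0 to 211.7 after normalization, and the groups overlap in every panel.

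Among the E2F and Dp genes, E2f2 had the smallest SD within groups of the 8 members on the normalised log2 scale (0.052, both groups pooled). Dp had the largest change after normalization, while as deposited its change was the smallest of the 8 (-0.03). E2f2 (CG1071), the repressing E2F, had deposited signals of 312.5, 359.4 and 328.6 in spotted-dick RNAi replicates 1 to 3, against 512.9, 391.0 and 321.9 in GFP RNAi replicates 1 to 3. After normalization the 6 signals lay between 346.9 and 382.5, and the group means were 365.9 ± 7.1 in spotted-dick RNAi arrays and 366.3 ± 18.0 in GFP RNAi arrays (SD, n = 3 each). The change was -0.00052 ± 0.08 (SE, limma adjusted p = 0.998). Its 95% interval, -0.16 to 0.16, corresponds to a fold of 0.893 to 1.12 on the signal + 16 scale and was the narrowest of the 8.

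Dp (CG4654), the obligate partner of both E2Fs, had deposited signals of 385.9, 336.4 and 334.8 in spotted-dick RNAi replicates 1 to 3, against 513.1, 383.8 and 233.8 in GFP RNAi replicates 1 to 3. Its normalised signals were 443.1, 345.3 and 378.7 in the spotted-dick RNAi arrays and 382.7, 341.6 and 267.3 in the GFP RNAi arrays. GFP RNAi replicate 3 lay well below the other 5 arrays, and spotted-dick RNAi replicate 1 lay above them. The change of 0.23 ± 0.12 (SE, 95% interval -0.02 to 0.49) had the lowest p of the 8 members and did not pass (limma adjusted p = 0.461). An absolute change larger than that of Dp was measured for 23.2% of all tested probe sets. The change was 0.09 without GFP RNAi replicate 3 and 0.14 without spotted-dick RNAi replicate 1.

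The probe set shared by E2f1 (CG6376), the activating E2F, and Torsin was near background. It had deposited signals of 22.2, 14.2 and 12.1 in spotted-dick RNAi replicates 1 to 3, against 17.2, 20.7 and 16.3 in GFP RNAi replicates 1 to 3. Only 2 of the 6 arrays, 1 in each group, exceeded 17.4. Its change was -0.01 ± 0.21 (SE, limma adjusted p = 0.984), and it gives no information on E2f1 by itself.

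The retinoblastoma genes had changes of opposite sign after quantile normalization, neither of which passed. Both were negative without normalization, at -0.21 for Rbf and -0.39 for Rbf2, and with median centring, at -0.14 and -0.32. Rbf (CG7413), which binds both E2Fs, had deposited signals of 191.1, 235.0 and 226.0 in spotted-dick RNAi replicates 1 to 3, against 303.4, 272.5 and 193.4 in GFP RNAi replicates 1 to 3. Its normalised mean was 239.2 ± 19.2 in spotted-dick RNAi arrays and 229.4 ± 10.7 in GFP RNAi arrays (SD, n = 3 each), a change of 0.05 ± 0.09 (SE, 95% interval -0.14 to 0.25, limma adjusted p = 0.864).

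Rbf2 (CG5083), which binds E2f2, had deposited signals of 34.9, 45.3 and 51.0 in spotted-dick RNAi replicates 1 to 3, against 90.0, 61.9 and 40.7 in GFP RNAi replicates 1 to 3. Its lowest signal came from spotted-dick RNAi replicate 1 and its highest from GFP RNAi replicate 1. After normalization the mean was 48.5 ± 10.7 in spotted-dick RNAi arrays and 55.0 ± 10.8 in GFP RNAi arrays (SD, n = 3 each). The change was -0.14 ± 0.17 (SE, limma adjusted p = 0.797). With 1 array left out it ranged from -0.25 to -0.0088, the value nearest 0 being that without spotted-dick RNAi replicate 1. Its 95% interval, -0.50 to 0.22, was the widest of the 8 and allows a fold between 0.708 and 1.16 on the signal + 16 scale.

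Partner genes were also compared within arrays, since a ratio between 2 probe sets of 1 array is little touched by that array's brightness. For each of 4 pairs the log2 ratio of the normalised values was averaged per group, and the group difference was tested by an exact two-sided permutation test over the 6 arrays, whose smallest possible p is 0.1. The ratio of CycD to Cdk4 differed by -0.02 (exact p = 0.9), that of CycE to Cdk2 by -0.10 (exact p = 0.6), that of Dp to E2f2 by 0.23 (exact p = 0.4) and that of Rbf to Rbf2 by 0.20 (exact p = 0.4). Adjusted over the 4 pairs, the exact permutation p-values were 0.8 to 0.9. Since the smallest possible p was 0.1, no pair could pass at 0.05. These p-values therefore do not show that the ratios were unchanged. The Rbf to Rbf2 ratio averaged 1.99 ± 0.14 on the log2(signal + 16) scale in spotted-dick RNAi arrays and 1.80 ± 0.22 in GFP RNAi arrays (SD, n = 3 each). The difference was thus smaller than the SD among GFP RNAi arrays.

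The sign of a member's change depended on how the arrays were scaled. Without normalization all 8 changes were negative, from -0.39 for Rbf2 to -0.03 for Dp, as were those of 82.6% of all tested probe sets. Their median was then -0.21, against -0.20 over all tested probe sets. After normalization 6 of 8 were positive, against 51.6% of all tested probe sets. Rbf2 was negative with normalization, without it, with median centring and with scaling to the hybridisation controls. Members passed in 1 fit alone, without normalization and without GFP RNAi replicate 3, where 4 of 8 passed as lower beside 33.0% of all tested probe sets. Those 4 were CycE, Rbf2, CycD and E2f2, and the fit was chosen after seeing the data.

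The file headers record 2 fluidics stations, which wash and stain the arrays. Station 1 held spotted-dick RNAi replicate 1 and GFP RNAi replicates 1 and 2, and station 2 held spotted-dick RNAi replicates 2 and 3 and GFP RNAi replicate 3. Within station 1 and within station 2 the change of CycE was -0.29 and 0.44, and that of Rbf2 was -0.51 and 0.19. Rbf and Cdk4 also differed in sign between the stations, with -0.09 and 0.16 for Rbf and 0.13 and -0.02 for Cdk4. CycD had 0.03 and 0.14, Cdk2 had 0.26 and 0.05, and E2f2 had -0.02 and 0.0021. Dp was positive in both, at 0.28 and 0.41. Each of the values within a station rests on 1 array of 1 group, so station and single array cannot be told apart. For Dp those arrays were spotted-dick RNAi replicate 1, its highest normalised signal (443.1), and GFP RNAi replicate 3, its lowest (267.3). Its shared sign in the 2 stations thus rests on these 2 arrays. With the station as a block in the fit, Dp had a change of 0.35 (limma adjusted p = 0.0792). This was the lowest adjusted p of any member under the alternatives planned, and no member passed. The change of Dp was 0.09 without GFP RNAi replicate 3, 0.14 without spotted-dick RNAi replicate 1 and 0.03 with median centring.

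**Figure D3:**
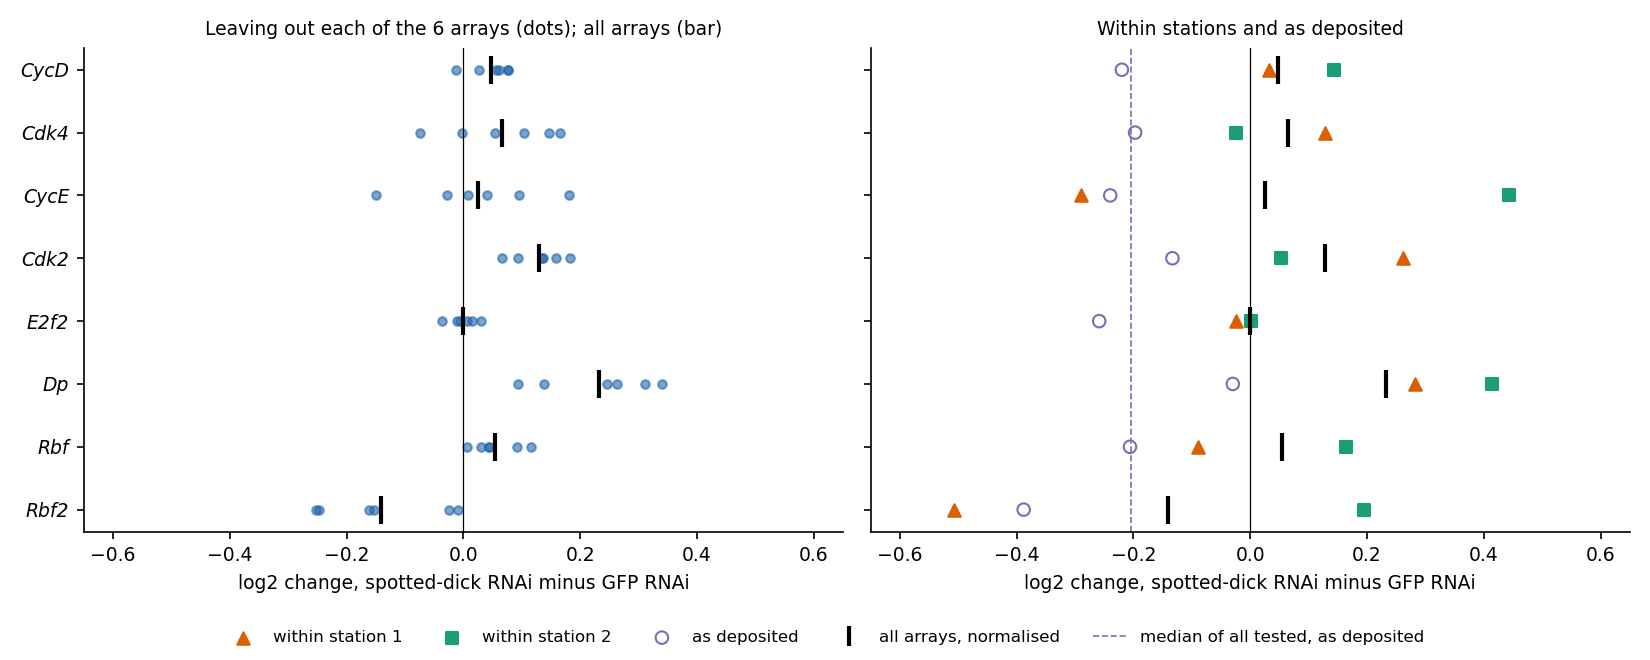
Log2 change (x axis, spotted-dick RNAi minus GFP RNAi) of each G1/S probe set with 1 array left out at a time (left) and within each fluidics station or without normalization (right); black bars mark the fit to all 6 normalised arrays. CycE and Rbf2 lie on opposite sides of 0 in the 2 stations, Dp stays above 0 in both, and the open circles, without normalization, all lie below 0.

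Around these members, 68 other genes were examined in 5 lists, and 52 of them were tested. The lists went beyond G1/S control and included mitotic cyclins and S-phase genes. Of the 52, 1 passed as higher and 0 as lower, where 0.604% and 1.43% of all tested probe sets did. The groups did not overlap for 10 of the 52, or 19.2%, beside 17.8% of all tested probe sets. The list medians ran from 0.03 to 0.10.

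The gene that passed was fzr, which directs the anaphase-promoting complex to mitotic cyclins in G1. It had deposited signals of 129.7, 126.8 and 123.0 in spotted-dick RNAi replicates 1 to 3, against 129.0, 108.6 and 84.1 in GFP RNAi replicates 1 to 3. Its normalised mean was 139.7 ± 6.3 in spotted-dick RNAi arrays and 95.7 ± 0.73 in GFP RNAi arrays (SD, n = 3 each), a change of 0.48 ± 0.10 (SE, limma adjusted p = 0.0245). The groups overlapped as deposited and did not after normalization. Within station 1 and station 2 its changes were 0.54 and 0.45. Without normalization the change was 0.23 (limma adjusted p = 0.628), and the call also ended in 5 of the 6 fits that left out an array, all but the one without spotted-dick RNAi replicate 2, although the change in those 6 fits was 0.45 to 0.51. The other 10 tested cyclins, kinases and regulators, among them CycB, CycB3, Cdk7, CycH and rux, did not pass.

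S-phase genes known as E2F targets in flies gave no call among 16 tested. Cdc6, which loads the replicative helicase, had a change of 0.35 ± 0.11 (SE, limma adjusted p = 0.170), the helicase subunit Mcm2 one of 0.16 (adjusted p = 0.345) and dUTPase, which keeps uracil out of DNA, one of 0.11 (adjusted p = 0.375). The change of Cdc6 was 0.083 without normalization and 0.15 with median centring. PCNA, the polymerase clamp and a standard E2F reporter, had a change of -0.10 (adjusted p = 0.671), and RnrL, a ribonucleotide reductase subunit, one of -0.03 (adjusted p = 0.949). The list median was 0.03, with 10 positive and 6 negative changes.

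Of 6 tested subunits or partners of the DREAM and MuvB complexes, in which E2f2, Dp and a retinoblastoma protein repress genes, none passed. The smallest p belonged to Caf1-55, a histone-binding subunit, at 0.18 ± 0.05 (SE, limma adjusted p = 0.118), followed by lin-52 at 0.20 (adjusted p = 0.558) and mip130 at 0.17 (adjusted p = 0.628). These 3 changes turned negative without normalization, at -0.08, -0.04 and -0.08. All 7 genes of the SCF ubiquitin ligases, some of which mark CycE for degradation, were tested and none passed. Roc1a, their RING subunit, had a change of 0.44 ± 0.12 (SE, limma adjusted p = 0.0984), while SkpA had -0.10 (adjusted p = 0.488) and Skp2 had 0.14 (adjusted p = 0.552). The change of Roc1a was 0.18 without normalization and 0.25 with median centring. Among 12 tested growth regulators none passed, with changes of -0.17 for the kinase gene Akt (adjusted p = 0.445), -0.11 for S6k (adjusted p = 0.574) and 0.33 for raptor (adjusted p = 0.669). The change of raptor was 0.026 without GFP RNAi replicate 3, where its deposited signal was 4.9, against 15.2 to 29.2 on the other 5 arrays.

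**Figure D4:**
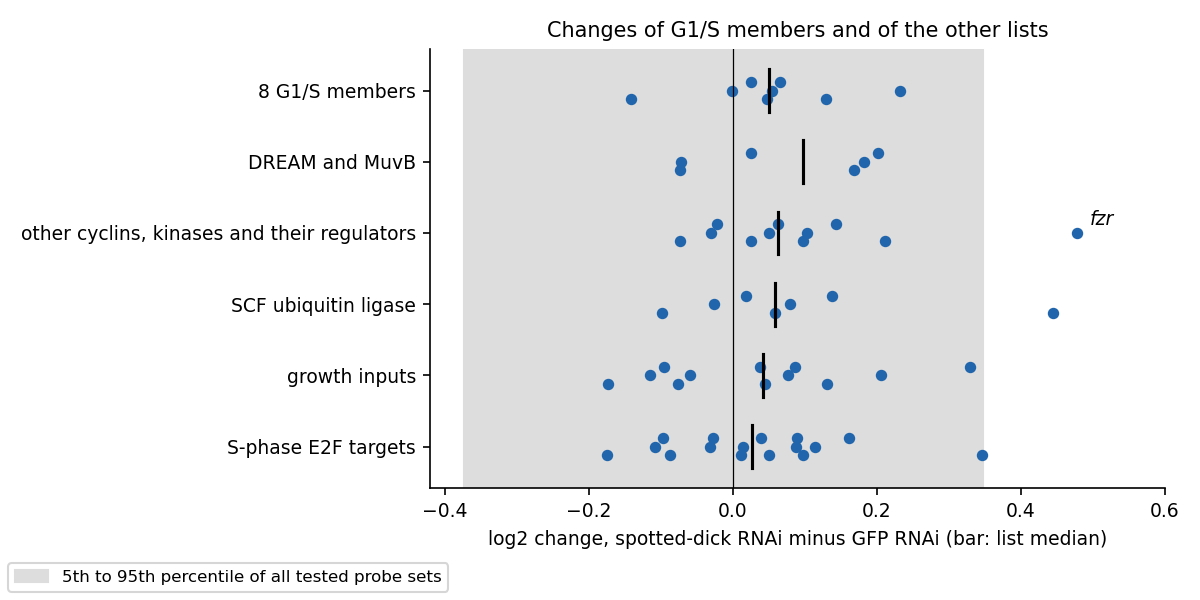
Log2 change (x axis, spotted-dick RNAi minus GFP RNAi) of the 8 G1/S members and of the tested genes of 5 other lists, 1 point per gene, with list medians as black bars. The grey band is the 5th to the 95th percentile of all tested probe sets; fzr, at 0.48, is the gene that passed the test.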

How the data were processed

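RNA of 6 samples was measured on Affymetrix Drosophila_2 arrays, per the file headers. The deposited table gave 1 intensity per probe set and array, and how the authors' software corrected the background or scaled the arrays is not given in the labels or headers. Control probe sets (125) were removed, and 18769 fly probe sets remained. The platform annotation paired 13647 with 1 gene, 402 with several and 4720 with none. The gene IDs of 13544 matched the RefSeq table of the Release 6 assembly, used for names only. The array's genome build is not stated, so no coordinates are given.

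Intensities were quantile-normalised as log2(signal + 16). The 40% of probe sets with the lowest means were left out, which left 11261. The groups, taken from sample titles, were compared with limma 3.58.1 in R 4.3.3 (lmFit, eBayes with an intensity trend, Benjamini-Hochberg over all probe sets tested, threshold 0.05). The pseudocount understates changes of dim probe sets. The steps were tested on simulated data whose planted changes were all larger than the change of any member, so changes of that size were not covered. Figures used matplotlib 3.10.9. The number of arrays limits the precision.

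The members and lists were chosen with earlier results of these data known. Named genes were all members, pita, Orc4 and, of each other list, the called genes or otherwise up to 3 with the smallest p; PCNA and RnrL, and the genes named without values, were chosen after their values were seen. A gene of another list was represented by its brightest tested probe set. Of 68 listed genes, 52 were tested, 4 fell below the filter, 11 had no probe set of their own and 1 was not matched to 1 gene. Alternatives were no normalization, median centring and scaling to 9 hybridisation controls; pseudocounts of 1 or 64; a filter at the 60th percentile or none; limma with robust estimation or without the trend; a block for the station or for the replicate number; and each array left out in turn. Leaving out GFP RNAi replicate 3 without normalization and the test of partner ratios were chosen after seeing the data.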

Additional observations from a re-analysis of the deposited data

How the results depend on the processing

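No member passed in any of the 17 fits planned as alternatives, and pita and Orc4 passed as lower in all 17. The count of calls over all probe sets was 229, against 140 without normalization, 126 without the filter, 53 without the intensity trend and 115 to 249 with 1 array left out (115 without GFP RNAi replicate 2, 142 without spotted-dick RNAi replicate 3 and 145 without GFP RNAi replicate 3). Without normalization all tested probe sets had a median of -0.20, and CycD (-0.22), Cdk4 (-0.20), CycE (-0.24), Cdk2 (-0.13), Dp (-0.030) and Rbf (-0.21) reversed, as did Caf1-55 (-0.081), lin-52 (-0.041), mip130 (-0.080), Mcm2 (-0.10), dUTPase (-0.15) and Skp2 (-0.12). With median centring that median was -0.14, and CycD (-0.16), Cdk4 (-0.13), CycE (-0.18), Cdk2 (-0.069), Rbf (-0.14), Caf1-55 (-0.017), mip130 (-0.016), Mcm2 (-0.035), dUTPase (-0.087) and Skp2 (-0.057) reversed. Scaling to the hybridisation controls reversed E2f2 (0.020). With 1 array left out the changes ranged from -0.012 to 0.077 for CycD, -0.075 to 0.17 for Cdk4, -0.15 to 0.18 for CycE and -0.037 to 0.030 for E2f2, and, with no reversal, from 0.066 to 0.18 for Cdk2, 0.094 to 0.34 for Dp, 0.0054 to 0.12 for Rbf and -0.25 to -0.0088 for Rbf2. The cause of these reversals was not tested.

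Without normalization and without GFP RNAi replicate 3, the dimmest GFP RNAi array, 3716 probe sets passed, or 33.0%, with a median change of -0.33 over all tested probe sets. In that fit 4 members passed as lower: CycE (-0.57), Rbf2 (-0.61), CycD (-0.44) and E2f2 (-0.41). Cdk4 (-0.31), Cdk2 (-0.28), Dp (-0.32) and Rbf (-0.38) were negative there and did not pass. With normalization, leaving out the same array gave 0 member calls.

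Samples with the same replicate number did not deviate together (correlations of -0.06, -0.03 and 0.05 for numbers 1 to 3). With the replicate number as a block 199 probe sets passed, no member did, and the call for fzr ended (adjusted p = 0.0652). It also ended without the filter (0.0761) and without the trend (0.0772), with the same change of 0.48 in these 3 fits, and with median centring, where the change was 0.29 (0.650). Averaging several probe sets of a gene gave no other value, since each member had 1.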
